A study of Mus musculus with 4 samples.

Results

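Germ layer and trophoblast lineage genes are genes whose products mark the first cell types that arise from pluripotent cells: 13 genes of primitive endoderm and endoderm, 8 of primitive streak and mesoderm, 6 of trophoblast and 9 of ectoderm, neural cells and neural crest. These 36 genes were taken from a list of names, with no limit on their values, though the list was chosen with earlier results of these data known. All 36 were found among the 21090 genes that could be named in the deposited tables. They were measured by RNA-seq in 46C mouse ES cells, a line that carries a GFP reporter at the neural gene Sox1. In both groups the endogenous Atad2 gene carried a TAP tag by knock-in, and the cells grew on gelatin in serum medium with LIF, the cytokine that keeps ES cells undifferentiated. The control group (si-ctrl, 2 libraries) received a scrambled siRNA and the knockdown group (si-Atad2, 2 libraries) an active siRNA against Atad2, an AAA ATPase with a bromodomain that binds acetylated chromatin. The comparison asks which genes depend on Atad2 in undifferentiated ES cells.

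ES cells derive from the inner cell mass, and in the embryo the first lineages to part from it are trophoblast, driven by factors such as Cdx2, Gata3 and Tfap2c, and primitive endoderm, driven by Gata6, Gata4 and Sox17. At gastrulation the primitive streak forms under T, Eomes and Mixl1 and gives mesoderm and definitive endoderm, while the remaining epiblast gives neural and surface ectoderm. In ES cells many of these transcription factor genes lie in CpG-rich chromatin held by Polycomb complexes, with little transcription, whereas several structural proteins of the same lineages are made at a basal level. Cultures in serum with LIF also hold some cells that leave the pluripotent state. In bulk RNA, fewer cells of a type and less RNA per cell cannot be told apart.

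Levels are given in FPKM (the number of fragments relative to transcript length and to library size), which can be compared between genes, and were summed over the transcripts of a gene. The authors ran si-Atad2 1 against si-ctrl 1 (pair 1) and si-Atad2 2 against si-ctrl 2 (pair 2) separately, so a change is the log2 ratio of si-Atad2 over si-ctrl within a pair, after adding 1 FPKM to both values. This added value shrinks the ratio of weakly expressed genes. A change was tested with limma over the 10393 genes whose mean reached 1 FPKM, and called at a Benjamini-Hochberg adjusted p under 0.05. The tables hold no read counts, and the depth is unknown. The study states that each RNA was sequenced more than once and that more than 1 active siRNA was used, but the labels do not say which siRNA or RNA each library comes from. If the libraries of a group are repeats of the same RNA, the p-values measure technical spread only.

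Atad2 itself (chr15:58094044-58135082 of GRCm38, minus strand) fell from 34.1 to 10.1 FPKM in pair 1 and from 36.01 to 13.0 FPKM in pair 2, with log2 ratios of -1.66 and -1.40 and an adjusted p by limma of 8.4e-06. All 12 ES cell markers listed were over 1 FPKM in both si-ctrl libraries, with summed levels between 3483 and 3685 FPKM over the 4 libraries. The 12 markers of fibroblasts, which could be carried over from feeder cells, summed to between 11.3 and 13.4 FPKM. Of these, Lum and Fap were listed at 0 in every library, and 4 (Thy1, Pdgfrb, Fbln2 and Col1a1) were over 1 FPKM in both si-ctrl libraries, of which none passed the test. Across all tested genes, log2 ratios of pair 1 spread more than those of pair 2, with interquartile ranges of 0.21 and 0.146. Between the si-ctrl libraries it was 0.115 and between the si-Atad2 libraries 0.159. Across tested genes, the log2 ratio had a Spearman correlation with GC content of -0.28 in pair 1, 0.0854 in pair 2 and -0.536 between the si-ctrl libraries. With the GC trend removed, the adjusted p of the only lineage gene called below, Tfap2c, was 0.045.

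In the scrambled siRNA cells, by FPKM, the lineage genes fell into a weakly transcribed majority and a smaller expressed set. This split depends on the unit. In TPM (FPKM rescaled to a fixed total per library), the genes over 1 in both si-ctrl libraries were the larger part. By FPKM, the basement membrane and cytoskeletal genes of these lineages were over 1 in both si-ctrl libraries, and most of their transcription factors were not. By mean si-ctrl level, these basement membrane and cytoskeletal genes ranged from Nes, above 63.0% of all named genes, to Sparc, above 96.4%. With limits of 0.1 and 1 FPKM, 3 genes were under the lower limit in both si-ctrl libraries (Afp, Pax3 and Neurog2), 14 were between the limits in both, and 14 were over 1 FPKM in both. The remaining 5 genes (Hand1, Msx2, Foxa2, Elf5 and Hnf4a) changed class between the si-ctrl libraries. Hnf4a is classed here by its single named transcript, which follows the gene only in part. Over all 21090 named genes, 32.9% were under 0.1 FPKM, 15.0% between and 48.6% over 1 FPKM in both libraries. The 11 members that are no transcription factors had a median si-ctrl level of 5.17 FPKM, and 9 of them were over 1 FPKM in both libraries, the exceptions being Afp and Kdr. The 25 transcription factors had a median of 0.396 FPKM, and 5 of them (Gata4, T, Eomes, Tfap2c and Pax6) were over 1 FPKM in both libraries. These classes follow the level itself and are given as a description.

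**Figure D1:**
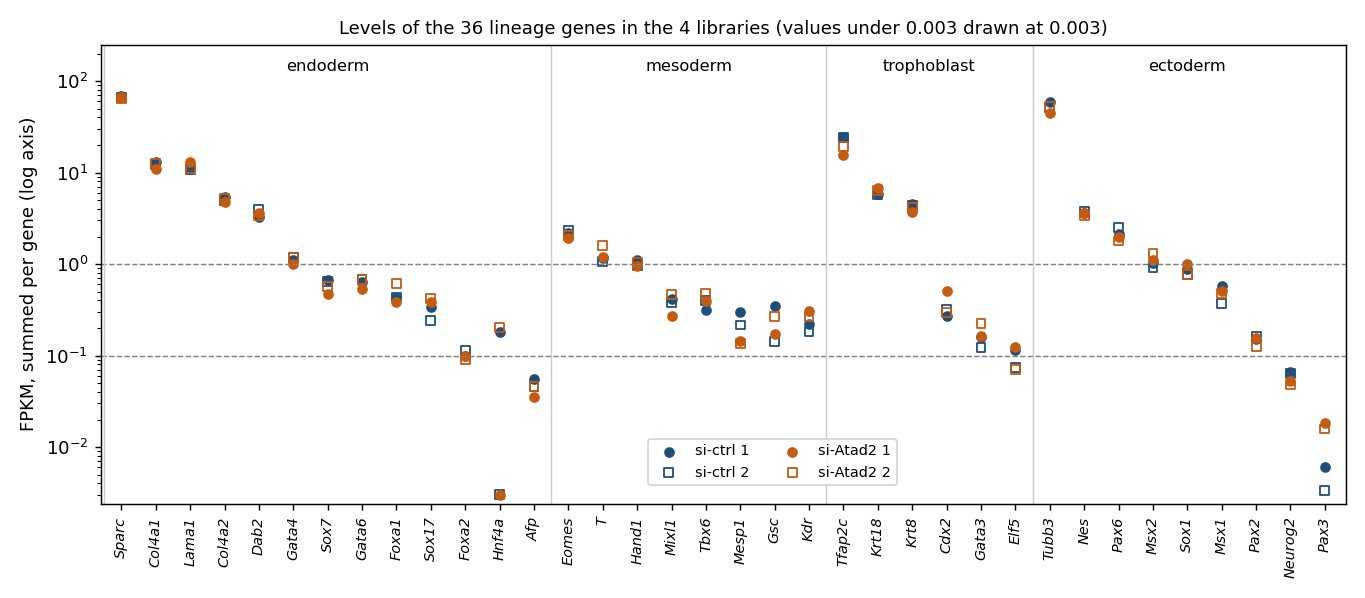
FPKM of the 36 lineage genes (log axis) in si-ctrl (blue) and si-Atad2 (orange) libraries, with filled circles for library 1 and open squares for library 2. Dashed lines mark 0.1 and 1 FPKM, genes are ordered by si-ctrl level within a lineage, and values under 0.003 FPKM are drawn there. Within a gene the 4 libraries lie close together compared with the range from Pax3 to Sparc, except for Hnf4a.

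The promoters of 5 members are shown. Among the members with a promoter window, they span the extremes of level and of CpG content, and they include the pair of collagen genes that share a promoter. Each window runs from 250 bases before to 50 bases after a RefSeq start on GRCm38 and is written on the strand of the gene, with every CpG (CG) in capitals, and with TATAAA in capitals in Afp. The Sparc window (chr11:55420031-55420330, minus strand) belongs to the most abundant lineage gene and holds 4 CpG. It was the only window of Sparc and lies inside the annotated gene (chr11:55394500-55423183), downstream of its annotated first base. Whether it is the start used in these cells was not tested. The Afp window (chr5:90490464-90490763, plus strand) belongs to a gene under 0.1 FPKM and holds 3 CpG. The Sox1 window (chr8:12395269-12395568, plus strand) holds 37 CpG, and Sox1 was at 0.761 and 0.882 FPKM in the si-ctrl libraries. The windows of Col4a1 (chr8:11312777-11313076, minus strand, 37 CpG) and Col4a2 (chr8:11312555-11312854, plus strand, 33 CpG) overlap by 78 bases, since the genes are transcribed away from each other, and their annotated first bases overlap by 22 bases.
Sparc: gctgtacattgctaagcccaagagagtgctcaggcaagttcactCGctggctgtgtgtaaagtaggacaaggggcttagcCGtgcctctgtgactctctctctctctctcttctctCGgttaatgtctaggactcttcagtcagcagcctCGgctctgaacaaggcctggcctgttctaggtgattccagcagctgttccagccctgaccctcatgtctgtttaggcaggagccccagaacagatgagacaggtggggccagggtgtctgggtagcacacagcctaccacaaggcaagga
Afp: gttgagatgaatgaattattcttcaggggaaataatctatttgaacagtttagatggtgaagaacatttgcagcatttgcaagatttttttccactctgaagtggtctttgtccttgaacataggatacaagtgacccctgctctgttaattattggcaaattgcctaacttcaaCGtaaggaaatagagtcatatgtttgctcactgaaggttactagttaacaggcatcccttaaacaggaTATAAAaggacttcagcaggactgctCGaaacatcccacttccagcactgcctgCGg
Sox1: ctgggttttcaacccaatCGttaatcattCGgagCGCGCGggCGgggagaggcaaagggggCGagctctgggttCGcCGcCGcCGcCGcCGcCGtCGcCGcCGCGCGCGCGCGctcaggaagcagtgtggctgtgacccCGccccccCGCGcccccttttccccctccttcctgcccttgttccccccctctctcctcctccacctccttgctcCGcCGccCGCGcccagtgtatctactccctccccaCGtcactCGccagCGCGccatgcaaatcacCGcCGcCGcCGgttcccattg
Col4a1: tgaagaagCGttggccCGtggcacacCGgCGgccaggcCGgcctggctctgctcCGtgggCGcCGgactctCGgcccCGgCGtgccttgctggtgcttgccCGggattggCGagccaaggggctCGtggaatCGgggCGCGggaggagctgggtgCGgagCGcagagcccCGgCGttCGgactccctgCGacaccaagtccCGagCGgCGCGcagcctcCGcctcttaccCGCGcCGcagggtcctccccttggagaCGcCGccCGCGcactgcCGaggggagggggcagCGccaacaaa
Col4a2: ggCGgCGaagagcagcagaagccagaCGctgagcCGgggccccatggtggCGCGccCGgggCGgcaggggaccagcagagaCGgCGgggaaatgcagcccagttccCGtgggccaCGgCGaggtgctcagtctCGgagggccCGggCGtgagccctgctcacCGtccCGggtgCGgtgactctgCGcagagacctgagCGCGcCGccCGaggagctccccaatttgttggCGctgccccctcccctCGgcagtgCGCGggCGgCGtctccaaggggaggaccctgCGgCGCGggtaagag

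A RefSeq window was matched for 27 of the 36 members. Their median was 18.0 CpG per 300 bases, against 8.0 over all 27025 genes with a window, where the interquartile range was 3.0 to 22.0. Where a gene had several windows, the window with the most CpG was taken. The 11 members with a window that were over 1 FPKM in both si-ctrl libraries had a median of 18.0 CpG, and the other 16 had 20.5. Windows with many CpG occurred in expressed and in low genes, with Tubb3 (26 CpG) at 55.04 FPKM and Pax2 (30 CpG) at 0.157 FPKM on average in si-ctrl. The 5 lowest genes with a window held 3 (Afp), 10 (Neurog2), 4 (Hnf4a), 10 (Elf5) and 23 CpG (Foxa2). Hnf4a ranks here by its single named transcript. With the unnamed long transcripts of its locus added, it was at 0.634 and 0.717 FPKM in si-ctrl and would not be among these 5. The letters TATAAA, searched on both strands, were present in 4 of the 27 windows (Afp, Gsc, Tbx6 and Krt8), a share of 14.8% against 13.8% of all genes. Level and CpG content are given as a description, with no test.

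**Figure D2:**
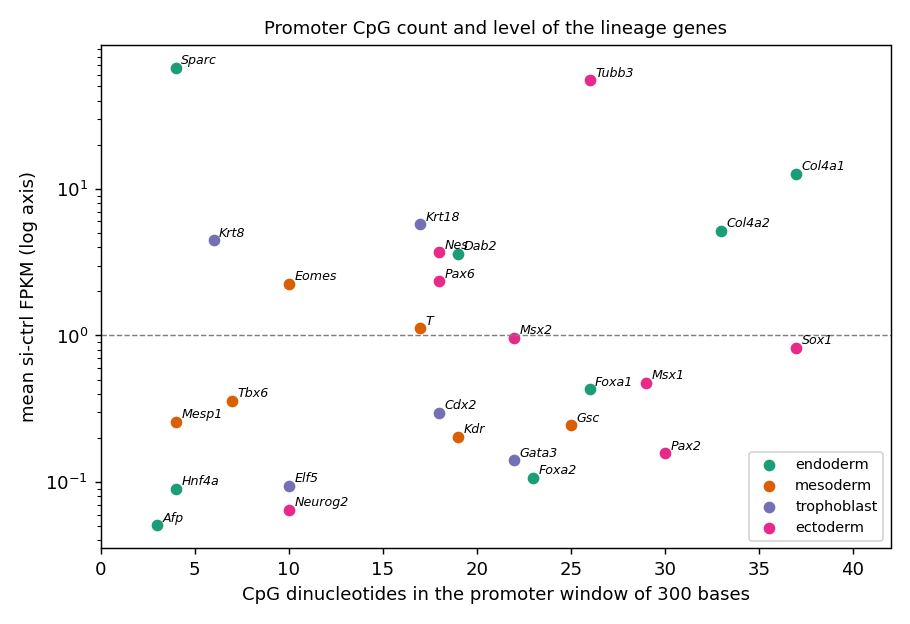
Mean si-ctrl FPKM (log axis) against the number of CpG dinucleotides in the promoter window of 300 bases, for the 27 lineage genes with a RefSeq window, coloured by lineage. Sparc and Afp, at the top and the bottom of the level range, hold 4 and 3 CpG, and Col4a1 and Sox1 both hold 37. The Sparc window lies inside the annotated gene.

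Knockdown of Atad2 was followed by few detectable changes in this set. Of the 36 genes, 16 had a mean of at least 1 FPKM and were tested, and 1 of these, Tfap2c, passed the threshold, with lower levels in si-Atad2. Across all tested genes 1.99% passed in either direction, 0.414% with lower and 1.58% with higher levels, so the share among the lineage genes rests on a single gene. An unadjusted p under 0.05 was found for 3 of the 16 (Tfap2c, Pax6 and Krt18), against 16.2% of all tested genes. The median log2 ratio of the 16 was -0.04 and that of all tested genes -0.01. The ratio had the same sign in both pairs for 10 of the 16 lineage genes (62.5%) and for 62.7% of all tested genes. Both si-Atad2 libraries lay below both si-ctrl libraries for 5 of the 16 (Tfap2c, Eomes, Krt8, Pax6 and Nes), against 26.8% of all tested genes. Both lay above for 4 (Lama1, T, Krt18 and Msx2), against 22.4%. These shares are a description of 16 genes. Left-out libraries moved the count of changed lineage genes to 0 (without si-ctrl 1 or si-ctrl 2), 3 (without si-Atad2 1) and 6 (without si-Atad2 2), with the remaining library of the group assumed to vary like the other group.

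**Figure D3:**
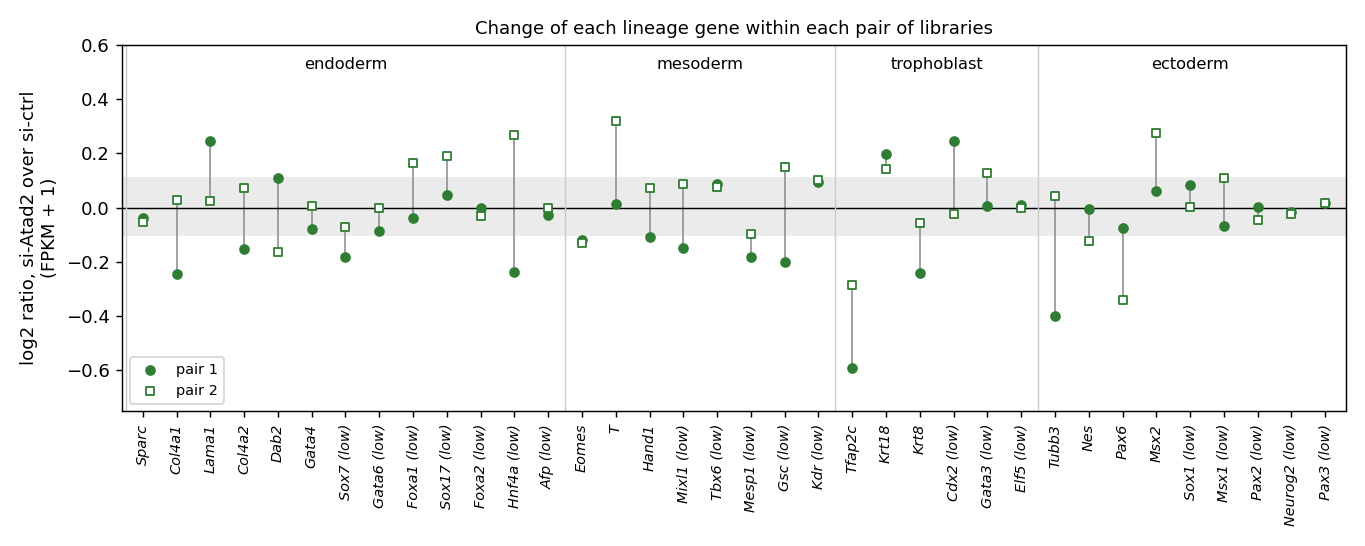
Log2 ratio (si-Atad2 over si-ctrl, FPKM + 1) in pair 1 (filled circles) and pair 2 (open squares) for each lineage gene, joined by a line, with untested genes of low level marked. The grey band spans the interquartile ranges of all tested genes in both pairs. Tfap2c (-0.59 and -0.29) and Eomes (-0.12 and -0.13) lie below the band in both pairs, and Krt18 (0.20 and 0.14) lies above it in both. Genes such as Tubb3 and T leave it in a single pair.

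Among the trophoblast genes, Tfap2c, Krt8 and Krt18 were expressed, and Cdx2, Elf5 and Gata3 were low. Tfap2c (chr2:172549593-172558622 of GRCm38, plus strand) encodes AP-2 gamma, a transcription factor of trophoblast and of primordial germ cells that is also present in naive ES cells. Its level was 24.2 and 23.9 FPKM in si-ctrl and 15.7 and 19.4 FPKM in si-Atad2. Both knockdown libraries were thus below both controls, with means of 24.1 ± 0.224 and 17.6 ± 2.62 FPKM (SD, n = 2 each). The log2 ratios were -0.59 and -0.29, with a mean of -0.44 (moderated SE 0.0807, adjusted p = 0.022 by limma), a level 0.738 times that of the control. By p-value it ranked 105 of the 10393 genes. It is recorded in 2 transcripts, and both were lower in both pairs. The transcript of 2837 bases went from 17.7 to 11.6 FPKM in pair 1 and from 18.5 to 15.3 FPKM in pair 2, and that of 2778 bases from 6.50 to 4.11 FPKM and from 5.41 to 4.13 FPKM. The call ended in several fits: the adjusted p was 0.064 without the pairing of libraries, 0.053 without a trend of variance on level, 0.071 when transcripts were named by length alone, 0.202 when transcripts under 200 bases were kept and 0.555 with no filter on level. It was 0.483 without si-ctrl 1 and 0.362 without si-ctrl 2.

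Krt8 (chr15:101996698-102004482) and Krt18 (chr15:102028180-102032027) encode the partner keratins of simple epithelia, which assemble into filaments together, and lie 23697 bases apart. Krt8 was at 4.54 and 4.37 FPKM in si-ctrl and at 3.68 and 4.15 FPKM in si-Atad2, so both knockdown libraries were lower (mean log2 ratio -0.15, 95% interval -0.33 to 0.03, adjusted p = 0.42 by limma). Krt18 was at 5.76 and 5.69 FPKM in si-ctrl and at 6.76 and 6.39 FPKM in si-Atad2, so both knockdown libraries were higher (0.17, 95% interval 0.00 to 0.34, adjusted p = 0.30 by limma). The mean log2 ratios of the partner keratins had opposite signs, neither passed the threshold, and the difference between them was not tested. Keratins have close copies elsewhere in the genome, and how the authors assigned reads shared with them is not given in the sources used here. Cdx2, the caudal homeobox factor that specifies trophectoderm, was at 0.274 and 0.319 FPKM in si-ctrl and 0.510 and 0.298 FPKM in si-Atad2, with 1 knockdown library high and the other within the controls. Elf5, an Ets factor of trophoblast stem cells, had the lowest mean si-ctrl level of the lineage, at 0.116 and 0.0733 FPKM in si-ctrl and 0.124 and 0.0711 FPKM in si-Atad2. Gata3 lay between 0.123 and 0.225 FPKM in the 4 libraries.

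The endoderm genes held both the most abundant lineage gene and Afp, near the limit of detection. Gata4 (chr14:63198922-63271692, minus strand), a zinc finger factor of primitive endoderm and heart, was at 1.12 and 1.18 FPKM in si-ctrl and 1.01 and 1.19 FPKM in si-Atad2. The groups overlapped, and the mean log2 ratio was -0.04 with a 95% interval of -0.23 to 0.16. Its partner Gata6, the earliest of these factors in primitive endoderm, was lower, at 0.629 and 0.679 FPKM in si-ctrl and 0.534 and 0.677 FPKM in si-Atad2. Sox7, an F-group Sox factor of primitive endoderm, was at 0.667 and 0.649 FPKM in si-ctrl and 0.470 and 0.570 FPKM in si-Atad2. Sox17, of the same group, was at 0.344 and 0.241 FPKM in si-ctrl and 0.386 and 0.417 FPKM in si-Atad2. Both genes were too low to be tested, and the authors' 95% intervals overlapped between groups. The forkhead factors Foxa1 and Foxa2, which open chromatin in endoderm, lay at 0.385 to 0.610 FPKM and 0.0900 to 0.113 FPKM over the 4 libraries. Afp (chr5:90490737-90508907, plus strand), the alpha-fetoprotein secreted by visceral endoderm and fetal liver, was at 0.0553 and 0.0460 FPKM in si-ctrl and 0.0350 and 0.0459 FPKM in si-Atad2. The authors' 95% intervals of Afp reached from 0 to 0.103 FPKM over the libraries, so no difference was detectable.

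Hnf4a, a nuclear receptor of liver and visceral endoderm, could be followed only in part. A single transcript of 4358 bases carried its name, with 0.180 and 0 FPKM in si-ctrl and 1.49e-05 and 0.204 FPKM in si-Atad2, that is 1 library of each group at or near 0. With the other transcripts over 4000 bases of its locus added, the sum over 3 transcripts was 0.634 and 0.717 FPKM in si-ctrl and 0.732 and 0.674 FPKM in si-Atad2. This sum, chosen after the values were seen, would put Hnf4a between 0.1 and 1 FPKM in every library. The added transcripts could not be named, and whether they belong to Hnf4a was not tested. An FPKM of 0 for a single transcript therefore need not be a level of 0 for the gene.

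The remaining endoderm genes encode basement membrane proteins and an adaptor, and all were over 1 FPKM. Sparc (chr11:55394500-55423183, minus strand), a secreted collagen-binding glycoprotein abundant in parietal endoderm, was at 68.4 and 66.1 FPKM in si-ctrl and 66.6 and 63.8 FPKM in si-Atad2. It had the highest si-ctrl level of the 36 genes and the narrowest interval of the 16 log2 ratios, -0.18 to 0.08 around -0.05. That interval, like the others, rests largely on the variance of other genes of like level. Lama1, the laminin alpha chain of early basement membranes, was at 10.9 and 10.8 FPKM in si-ctrl and 13.1 and 10.98 FPKM in si-Atad2. Its 2 knockdown libraries were above the controls, by 0.24 and 0.02 on the log2 scale, and the mean did not pass the threshold (adjusted p = 0.44 by limma). Col4a1 and Col4a2 encode the collagen IV chains that form a common triple helix, and their promoter windows are those printed above. Col4a1 was at 13.0 and 12.3 FPKM in si-ctrl and 10.8 and 12.6 FPKM in si-Atad2. Col4a2 was at 5.39 and 4.95 FPKM in si-ctrl and 4.75 and 5.26 FPKM in si-Atad2. In both collagen genes si-Atad2 1 was the lowest library and si-Atad2 2 lay between the controls, with log2 ratios of -0.25 and 0.03 for Col4a1 and -0.15 and 0.07 for Col4a2. Dab2, an endocytic adaptor of primitive endoderm, was at 3.26 and 3.96 FPKM in si-ctrl and 3.59 and 3.42 FPKM in si-Atad2, with both knockdown libraries between the controls.

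**Figure D4:**
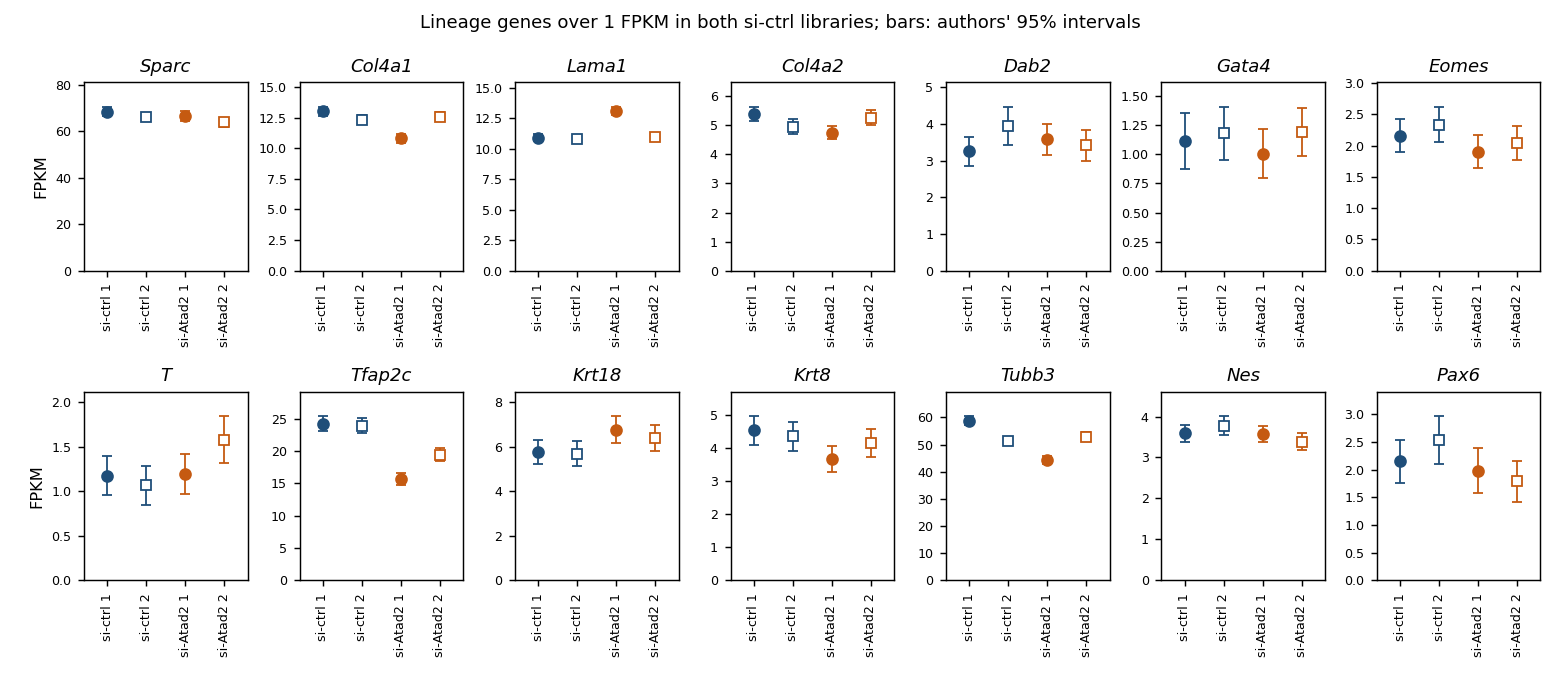
FPKM of the 14 lineage genes over 1 FPKM in both si-ctrl libraries, a panel per gene with its own axis from 0, in si-ctrl (blue) and si-Atad2 (orange) libraries 1 (filled) and 2 (open). Bars are the authors' 95% intervals, combined over transcripts and covering a single library's estimate only, and in Tfap2c those of both si-Atad2 libraries lie below those of both si-ctrl libraries.

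The mesoderm genes were low as a group, and none was over 3 FPKM. Eomes, a T-box factor of the streak, of definitive endoderm and of trophoblast, was the highest, at 2.16 and 2.33 FPKM in si-ctrl and 1.91 and 2.04 FPKM in si-Atad2. Both knockdown libraries were lower, by nearly the same log2 ratio (-0.12 and -0.13), and the mean did not pass the threshold (95% interval -0.31 to 0.06, adjusted p = 0.50 by limma). T, or Brachyury, the T-box factor of nascent mesoderm, was at 1.17 and 1.07 FPKM in si-ctrl and 1.19 and 1.58 FPKM in si-Atad2. Its level in si-Atad2 1 was 0.01 above the control on the log2 scale and that in si-Atad2 2 stood 0.32 above it (mean 0.17, adjusted p = 0.45 by limma). Hand1, a helix-loop-helix factor of lateral mesoderm and trophoblast giant cells, lay on both sides of 1 FPKM in each group, at 1.10 and 0.952 FPKM in si-ctrl and 0.949 and 1.05 FPKM in si-Atad2. The other 5 genes, all between 0.1 and 1 FPKM in both si-ctrl libraries, were not tested. Kdr, the VEGF receptor of early blood and endothelial precursors, had the lowest mean si-ctrl level of the lineage, at 0.223 and 0.183 FPKM in si-ctrl and 0.305 and 0.268 FPKM in si-Atad2. Mesp1, a helix-loop-helix factor of cardiac mesoderm, was at 0.299 and 0.216 FPKM in si-ctrl and 0.144 and 0.135 FPKM in si-Atad2. The authors' intervals overlapped between groups for both genes. The homeobox genes Mixl1 and Gsc and the T-box gene Tbx6 lay between 0.142 and 0.476 FPKM in the 4 libraries, with overlapping groups.

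The ectoderm genes ranged from Tubb3, at 44.3 FPKM or more in every library, to Pax3, near the limit of detection. Tubb3 (chr8:123411424-123422015, plus strand), the class III beta-tubulin used as a marker of neurons, was at 58.8 and 51.3 FPKM in si-ctrl and 44.3 and 52.9 FPKM in si-Atad2. The si-Atad2 1 library was lowest and si-Atad2 2 lay between the controls, so the pairs gave -0.40 and 0.04 on the log2 scale (mean -0.18, adjusted p = 0.37 by limma). Tubulin genes share much sequence, so reads could have been divided among them. Nes, the intermediate filament protein nestin of neural progenitors, was at 3.59 and 3.78 FPKM in si-ctrl and 3.57 and 3.39 FPKM in si-Atad2. Pax6, a paired-box factor of eye, forebrain and neural tube, was at 2.15 and 2.53 FPKM in si-ctrl and 1.99 and 1.79 FPKM in si-Atad2. Both knockdown libraries were lower, with log2 ratios of -0.08 and -0.34 (mean -0.21, SE 0.0932, adjusted p = 0.30 by limma). An antisense gene overlaps Pax6, and use of strand in the counting is not given in the sources used here, so reads of the antisense gene may be included. The same may hold for Gata6, Eomes, Dab2, Afp and Pax2, and for Col4a1 and Col4a2, which overlap each other by 22 bases on opposite strands. This list need not be complete.

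Msx2, a homeobox factor of neural crest and surface ectoderm, was at 1.03 and 0.905 FPKM in si-ctrl and 1.12 and 1.30 FPKM in si-Atad2 (mean log2 ratio 0.17, adjusted p = 0.42 by limma). Its relative Msx1 was at 0.582 and 0.370 FPKM in si-ctrl and 0.509 and 0.477 FPKM in si-Atad2. Sox1, the SoxB1 factor of early neural plate and the site of the GFP reporter in this line, was at 0.882 and 0.761 FPKM in si-ctrl and 0.992 and 0.764 FPKM in si-Atad2. Pax2, a paired-box factor of kidney and midbrain, lay between 0.124 and 0.161 FPKM. The proneural factor Neurog2 lay between 0.0477 and 0.0660 FPKM. Pax3 (chr1:78101267-78197134, minus strand), a paired-box factor of neural crest and muscle, was the lowest of all 36 genes in si-ctrl. It was at 0.00605 and 0.00334 FPKM in si-ctrl and at 0.0182 and 0.0158 FPKM in si-Atad2, and the authors' 95% intervals included 0 in every library, so no difference was detectable.

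**Figure D5:**
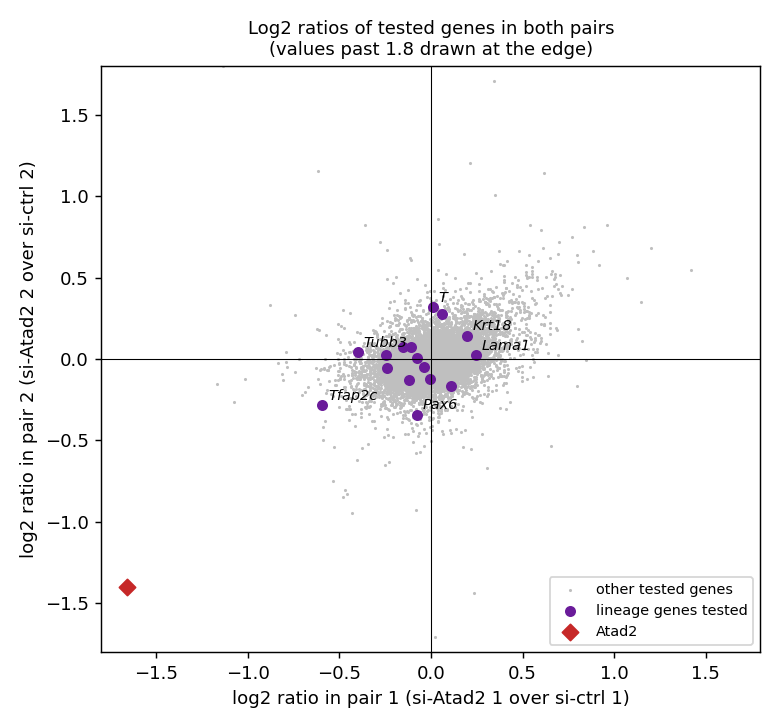
Log2 ratio (si-Atad2 over si-ctrl) of pair 1 (horizontal) against pair 2 (vertical) for the 10393 tested genes (grey), the 16 tested lineage genes (purple) and Atad2 (red diamond). Atad2 stands apart at -1.66 and -1.40, Tfap2c (-0.59 and -0.29) is the lowest lineage gene in pair 1, and Pax6 (-0.34) is lower than it in pair 2.

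Wider lists of genes of the same lineages, none of them among the 36, gave 3 called genes (Id2, Sox3 and Vim), beside 1.99% of all tested genes called and 16.2% with an unadjusted p under 0.05. These lists are described by their counts only. They were chosen with earlier results of these data known, so a share above that of all tested genes is no independent evidence. Of 15 tested genes of primitive endoderm and endoderm, 0 passed limma's test and 2 had an unadjusted p under 0.05. The lowest were Fst, the activin-binding protein follistatin, at -0.40 (adjusted p = 0.059) and Cited1 at -0.34, and the highest were Cxcr4, the chemokine receptor of definitive endoderm, at 0.13 and Srgn at 0.11. Of 7 tested streak and mesoderm genes, 0 passed limma's test and 1 had an unadjusted p under 0.05. This was Tcf15, a helix-loop-helix factor of paraxial mesoderm, at 0.23 (adjusted p = 0.096), followed by Mesp2 at 0.17, and the lowest were the streak ligand Wnt3 at -0.21 and Etv2 at -0.07.

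Of 14 tested trophoblast genes, 1 passed limma's test and 2 had an unadjusted p under 0.05, against 1.99% and 16.2% of all tested genes. Id2, an inhibitor of helix-loop-helix factors, rose from 9.65 to 14.9 FPKM in pair 1 and from 9.44 to 12.2 FPKM in pair 2 (mean log2 ratio 0.46, adjusted p = 0.014 by limma). The second highest was the galectin Lgals3 at 0.12, and the lowest were the Ets factor Ets2 at -0.22 and the homeobox gene Dlx3 at -0.20. Of 12 tested neural and neural crest genes, 2 passed, in opposite directions, and 6 had an unadjusted p under 0.05, against 1.99% and 16.2% of all tested genes. Sox3, a SoxB1 factor related to Sox1, rose from 1.53 to 2.80 FPKM and from 1.23 to 2.40 FPKM (0.59, adjusted p = 0.0051 by limma), and both si-Atad2 libraries were above both controls. Vim, the intermediate filament vimentin, fell from 147 to 116 FPKM and from 141 to 118 FPKM (-0.30, adjusted p = 0.027 by limma). Next to these stood Gbx2, a homeobox factor, at 0.47 (adjusted p = 0.097) and Sox21 at -0.17. Gbx2 stood at 0.83 in pair 1 and 0.11 in pair 2, so its mean rests mostly on si-Atad2 1, without which it was 0.11, whereas without si-Atad2 2 it was 0.82. The calls also ended in other fits. With transcripts of all lengths the adjusted p was 0.167 for Id2, 0.0876 for Sox3 and 0.202 for Vim, and with no filter on level 0.529, 0.507 and 0.525. That of Id2 was 0.0515 without the pairing of libraries and 0.0606 with transcripts named by length alone, and that of Vim 0.0590 with median of ratios and 0.0939 without a trend of variance on level. Leaving out si-ctrl 1 raised the adjusted p to 0.368 for Id2, 0.134 for Sox3 and 0.396 for Vim, and leaving out si-ctrl 2 raised it to 0.362, 0.285 and 0.208.

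Among the 12 ES cell markers, 9 were lower in both pairs (75%, against 34.0% of all tested genes), 1 passed limma's test (against 1.99%) and 6 had an unadjusted p under 0.05 (against 16.2%). This list too was chosen with earlier results of these data known. The gene that passed was higher. Klf2, a zinc finger factor of the naive state, rose from 53.1 to 77.7 FPKM and from 48.1 to 85.7 FPKM (mean log2 ratio 0.68, adjusted p = 0.0014). The next in each direction were Tdgf1 at 0.09, Nanog at -0.25 (adjusted p = 0.12) and Fgf4 at -0.19 (adjusted p = 0.13). Nanog was at -0.10 without si-Atad2 1 and at -0.40 without si-Atad2 2. The adjusted p of Klf2 was 0.0803 without si-ctrl 2, 0.0864 with transcripts of all lengths and 0.525 with no filter on level.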

How the data were processed

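RNA-seq of 4 libraries was analysed, 2 per siRNA, grouped by their labels. Per the labels, reads were processed with TopHat and Cuffdiff on mm9, whereas the loci of the tables match GRCm38, which was used here. The authors ran Cuffdiff on 1 si-Atad2 and 1 si-ctrl library at a time and deposited FPKM with 95% intervals for 59120 transcripts. Columns of the authors' own comparisons (fold changes, p-values and q-values) were not used. Transcripts were named with GENCODE vM21 by length within 3 bases inside the locus (14923) or as the only coding gene that lay in the locus or covered at least 50% of it (30460), and 13737 stayed unnamed. Transcripts under 200 bases (6632) or with a failed status (720) were left out, and FPKM were summed per gene. Intervals of a gene combine the upper half-widths of its transcripts in quadrature. Log2(FPKM + 1) was fitted with limma (lmFit with pair and siRNA, eBayes with a trend). The code was run on simulated data with changes of 2-fold or more and the same spread for every gene. That run does not bear on smaller changes such as that of Tfap2c. Count models were not run, because FPKM are normalized values.

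The pairing comes from the authors' runs. After subtraction of the group mean, libraries with the same number were correlated at -0.025 (Pearson, across genes). The members and lists were chosen with earlier results of these data known. All 36 members are accounted for: those over 1 FPKM in both si-ctrl libraries with every value, the others by class, with values for Gata4, Gata6, Afp, Pax3 and the highest and lowest of each lineage. Values of some further members are given as well. From each wider list, the genes past the threshold are named, or, if under 3 passed, also the 2 highest and 2 lowest ratios. Promoter windows were from RefSeq (GRCm38.p6), and those of Tfap2c, Gata4, Sox7, Hand1, Lama1, Gata6, Pax3, Mixl1 and Sox17 were not used here. Foxf1, Bmp4, Igf2, H19, Arid3a and Neurod1 of the wider lists were not analysed here. Alternatives were pseudocounts, TPM, median of ratios, other filters, no block, a GC correction, other class limits and leaving out libraries. Versions were limma 3.58.1 in R 4.3.3, and pandas 2.3.3, numpy 2.4.6 and matplotlib 3.10.9 in Python 3.11.15.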

Additional observations from a re-analysis of the deposited data

How the results depend on the processing

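Of the 10393 genes tested, 207 changed (164 higher and 43 lower), 1 of them a lineage gene. Both counts fell to 131 and 0 with no replicate block and without a trend of variance on level, to 12 and 0 with transcripts of all lengths, and to 32 and 0 with transcripts named by length alone, where 5 lineage genes were tested and their median log2 ratio was -0.11. With no filter on low values 0 genes and 0 lineage genes passed limma's test (1950 genes had an unadjusted p under 0.05), and Atad2, at -1.53, had an adjusted p of 0.51. At a threshold of 0.1, 420 genes passed and still 1 lineage gene. With 1 library left out, the block was dropped and the counts ranged from 11 to 1971 genes and from 0 to 6 lineage genes. They were 15 genes without si-ctrl 1, 11 without si-ctrl 2, 749 without si-Atad2 1 and 1971 without si-Atad2 2. With 1 pair left out no test is possible. The median of the lineage genes ranged from -0.08 to 0.02 over left-out libraries and pairs, and the Atad2 ratio from -1.70 to -1.36. In TPM, 22 lineage genes were over 1 in both si-ctrl libraries, against 14 in FPKM, and 5 were so with transcripts named by length alone.

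Leaving out libraries or pairs turned the sign of 12 named ratios, none of which had passed the test, with ranges from -0.25 to 0.026 for Col4a1, -0.15 to 0.073 for Col4a2, -0.11 to 0.073 for Hand1, -0.10 to 0.028 for Gata4, -0.17 to 0.11 for Dab2, -0.40 to 0.043 for Tubb3, -0.12 to 0.11 for Col1a1, -0.23 to 0.10 for Thy1, -0.033 to 0.21 for Tdgf1, -0.061 to 0.29 for Srgn, -0.44 to 0.0405 for Dlx3 and -0.16 to 0.013 for Etv2. Hand1 was at 0.00056 with the GC trend removed, and Col1a1 at 0.020 there, at 0.0270 in TPM and at 0.00244 with median of ratios. The mean si-ctrl level of Hnf4a was 0.0902 FPKM, and 0.676 FPKM with the long transcripts of its locus added, an alternative chosen after seeing the data. The cause of these differences was not tested. Levels under 0.1 FPKM are near the limit that the authors' intervals allow, and changes of such genes could not be detected.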
